A study of Mus with 2 samples.

Results

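Granzymes and the genes that work with them in cell killing were followed across mouse bone marrow: Gzma, Gzmb and Gzmk, which encode serine proteases of cytotoxic granules, Prf1, Nkg7, Fasl, Ifng, Klrd1 and Klrk1. The 9 genes were chosen by name and are 9 of the 32285 genes in the matrices. Marrow from the hindlimbs of mice in a ground group and a running group was profiled with a droplet kit that counts 3′ ends (Chromium Single Cell 3′, v3), with 1 library per group. The labels give no genotype, strain or age, no number of mice per library, no running device or duration, and no treatment other than the group name, and do not say how the ground mice were kept. With 1 library in each of the 2 groups there is no replicate check, so no test was made, and every 95% interval given covers counting error only.

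Cytotoxic lymphocytes, that is natural killer (NK) cells, CD8 T cells and some γδ T cells, store granzymes and perforin in granules and release them onto a target cell. Perforin opens the target's membrane and granzymes enter and cleave proteins inside it, while Fas ligand on the killer's surface triggers death through the receptor Fas, and interferon-γ is secreted and acts on many cell types. Receptors of the NKG2 family tell these cells what to attack or spare. In the marrow such cells are a small minority beside developing blood cells, and some granule genes are also used by cells that are not lymphocytes.

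The matrices held 9162 barcodes and 85014860 unique molecular identifiers (UMIs, each a captured transcript) in ground, and 9473 barcodes and 79990530 UMIs in running. After filters and doublet removal 8666 and 9080 cells remained, with medians of 5938 and 5145.5 UMIs. The libraries shared 24 barcodes. T cells were gated by at least 2 UMIs of the CD3 genes Cd3d, Cd3e and Cd3g together, and NK cells by at least 2 UMIs of the NK receptor genes Ncr1, Klrb1c and Klre1 in cells outside the T gate. The T gate held 240 ground cells (2.77%, 2.43 to 3.14) and 350 running cells (3.85%, 3.47 to 4.27). The NK gate held 58 (0.669%, 0.509 to 0.864) and 70 (0.771%, 0.601 to 0.973), and 8368 and 8660 cells were in neither.

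The gates matched their names by markers, with limits that touch the results. The T-cell receptor gene Trac was seen in 65.0% and 64.9% of T-gated cells and in 0 of 58 and 1 of 70 NK-gated cells. Trbc2, another T-cell receptor gene, was seen in 78.3% and 80.3% of T-gated cells, but also in 15 of 58 and 33 of 70 NK-gated cells. Summed, 13 T-cell markers were at 3698 and 4104.5 CPM in T-gated cells and at 998 and 1087 CPM in NK-gated cells. The 13 include Cd3d, Cd3e and Cd3g, which set the T gate, so part of this contrast was fixed by the gating. The NK transcription factor gene Eomes was seen in 29 of 58 and 55 of 70 (78.6%) of NK-gated cells and in 24.6% and 23.4% of T-gated cells. Of the NK-gated cells, 15 ground cells but only 2 running cells lay outside the NK cell-like cluster, which had been built without the 9 genes, and 9 of the 15 lay in a monocyte-like cluster of low depth. Transcripts of 11 neutrophil markers made up 58272 CPM (UMIs of a gene per 1000000 UMIs of the same cells) of the ground and 16022 CPM of the running NK-gated cells, and 101345 and 73498 CPM of the T-gated cells. Of the T-gated cells, 33 ground and 64 running cells lay outside the T cell-like and NK cell-like clusters, 26 and 51 of them in neutrophil-like clusters. None of the 11 neutrophil markers was at 0 in either gate. A ground NK-gated cell in the granulocyte-monocyte progenitor-like cluster held 25945 of that gate's 312621 UMIs. The 5 progenitor markers summed to 3701 and 57.9 CPM in NK-gated cells and to 2823 and 397 CPM in T-gated cells. The 9 NK markers, gate genes included, summed to 3989 and 4971 CPM in NK-gated cells. B-cell precursor markers were there at 672 and 11.1 CPM, conventional dendritic cell markers at 1206 and 212, and macrophage markers at 38.4 and 62.4. The part of such transcripts in the results was not tested, and values are also given within the matching clusters where these differed. Median depth was 5135 and 6150.5 UMIs in T-gated cells and 4370 and 5570 UMIs in NK-gated cells.

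In T-gated cells, Gzmb and Ifng were the members that differed most between the libraries, both higher in running, while Prf1 and Fasl were not higher. The level of Gzmb was 18.8 CPM among the ground cells and 55.3 CPM among the running cells, and that of Ifng 17.6 and 63.3 CPM. These 2 of the 9 members were at least 2-fold higher in running, where 2.75% of the 7373 genes with at least 50 UMIs in the gate were, and 0 members were at least 2-fold lower, where 0.692% of genes were. In all, 7 of 9 members had a ratio above 0 on the log2 scale, with a median of 0.33, while 57.8% of all genes did and their median was 0.06. Nkg7 alone held 49.3% of the UMIs of the 9 genes in ground and 44.0% in running. Summed, the 9 genes made up 1301 CPM of the ground and 1586 CPM of the running T-gated UMIs, a log2 ratio of 0.29 (0.21 to 0.36). The ratio was 0.35 (0.27 to 0.43) within the T cell-like and NK cell-like clusters, where the same 2 members passed the 2-fold mark and 1.37% of genes did.

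In NK-gated cells the 9 genes made up 7015 CPM of the ground and 8922 CPM of the running UMIs, a log2 ratio of 0.35 (0.27 to 0.42), but this did not hold within the NK cell-like cluster. There the sums were 9644 CPM over 43 ground cells and 9248 CPM over 68 running cells, a log2 ratio of −0.06 (−0.14 to 0.02). Over the whole gate all 7 members with at least 50 UMIs had a ratio above 0, as did 61.8% of all genes, and 0 of the 7 reached 2-fold in either direction, where 1.63% of 2326 genes were at least 2-fold higher and 1.93% at least 2-fold lower. Within the cluster 1 of the 7, Fasl, was above 0 and 6 were below, while 49.0% of all genes were above 0 and 1.76% were at least 2-fold higher. The 15 ground cells outside the cluster had 1092 CPM of the 9 genes and a median of 1963 UMIs. Over the whole gate Gzma held 49.3% and 52.35% of the UMIs of the 9 genes, and Nkg7 22.75% and 21.5%.

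**Figure D1:**
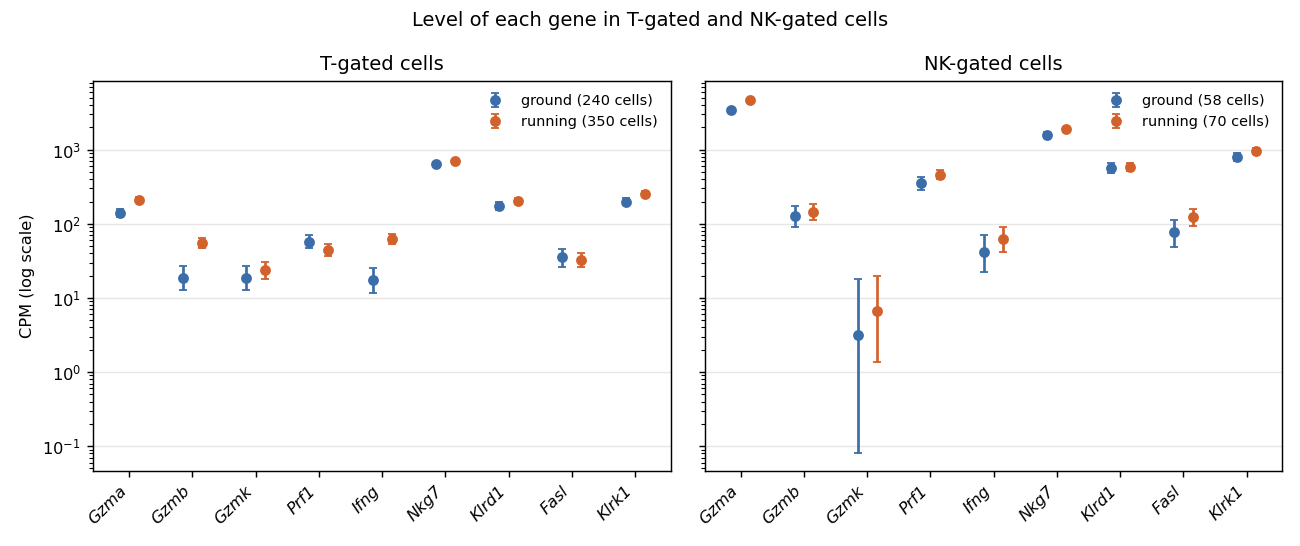
Level of each gene in T-gated cells (left) and NK-gated cells (right), as CPM of UMIs summed over the cells, on a log axis. Points are the ground (blue) and running (orange) libraries and bars are 95% Poisson intervals of the counts. In T-gated cells the bars of Gzmb and of Ifng lie apart between the libraries, at 18.8 and 55.3 CPM and at 17.6 and 63.3 CPM, while those of Gzmk, Prf1 and Fasl overlap. Levels of different genes are not comparable here.

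Most of the members were nearly confined to the gated cells, and Nkg7, Klrd1, Klrk1 and Gzmb were not. Cells were sorted into the 2 gates and, outside them, into clusters named from markers. NK-gated cells had the highest level of 8 members in ground and of 7 in running, the exceptions being Gzmk, highest in T-gated cells in both libraries, and Ifng, which in running was at 63.3 CPM in T-gated and 62.4 CPM in NK-gated cells with overlapping intervals. For Gzma, Prf1 and Fasl, T-gated cells came second in both libraries and did not overlap either neighbour in the order. Below them the level of Gzma was highest in plasma cell-like cells, at 5.79 and 8.83 CPM from 4 UMIs in 28 ground cells and 5 UMIs in 24 running cells, too few cells for the order. In the classes with at least 40 cells it was at most 3.67 CPM, and the intervals of neighbouring classes overlapped.

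**Figure D2:**
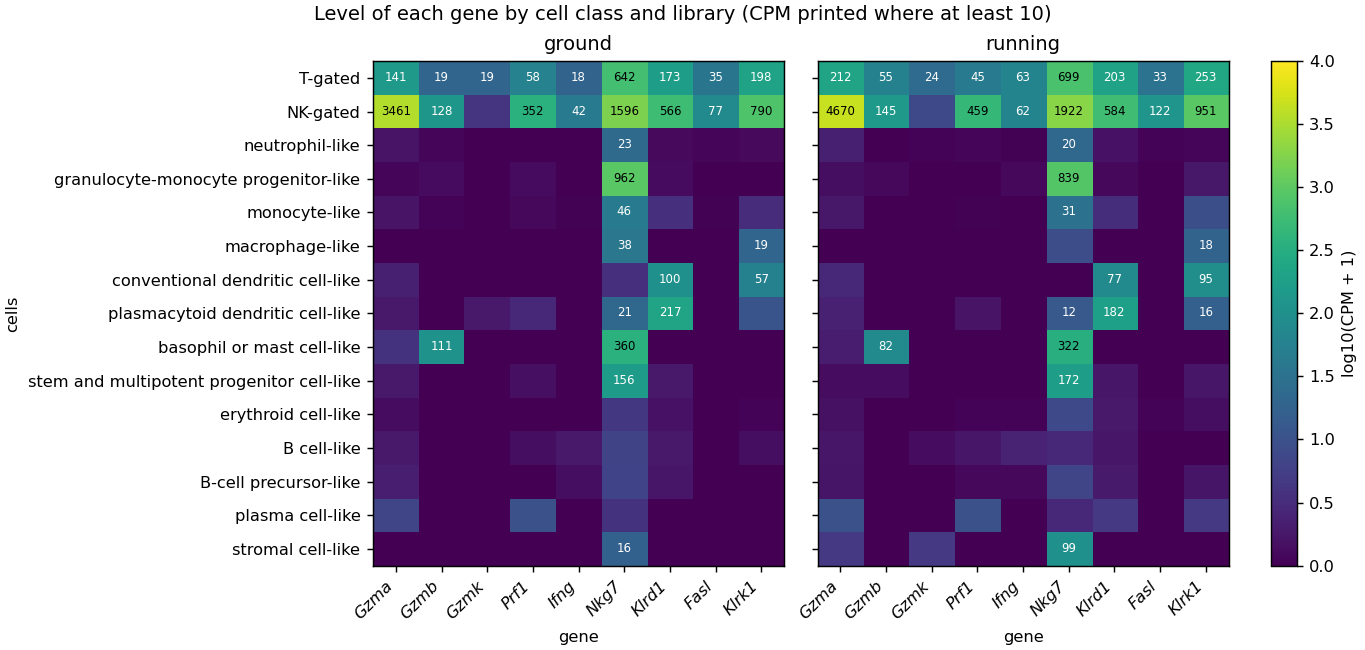
Level of each gene in each class of cells, for ground (left) and running (right). Colour is log10(CPM + 1) and the number is the CPM where it is at least 10. Outside the T and NK gates, Nkg7 stands out in granulocyte-monocyte progenitor-like cells (962 and 839 CPM), Klrd1 in plasmacytoid dendritic cell-like cells (217 and 182 CPM) and Gzmb in basophil or mast cell-like cells (111 and 82.3 CPM).

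Gzma encodes granzyme A, a protease that cuts after basic residues. Its gene lies on chromosome 13 at 113093824 to 113100981 in GRCm38.p6, 70.65 kb from Gzmk at 113171630 to 113180965. NK-gated cells held 1082 Gzma UMIs in ground and 2097 in running, or 3461 CPM (3258 to 3674) and 4670 CPM (4473 to 4875), for a log2 ratio of 0.43 (0.33 to 0.54). Within the NK cell-like cluster the 2 libraries were level, at 4827 and 4824 CPM, and the interval of the log2 ratio ran from −0.11 to 0.11. A UMI of Gzma was seen in 79.1% (34 of 43) and 83.8% (57 of 68) of these cells.

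In T-gated cells Gzma was carried by few cells. It had 224 UMIs in 20 of 240 ground cells and 556 UMIs in 24 of 350 running cells, which is 141 and 212 CPM with a log2 ratio of 0.59 (0.37 to 0.82). A single running CD8 cell held 211 of the 556 UMIs, and the cell with most in ground held 24. Without these cells the log2 ratio was 0.07 (−0.18 to 0.33). The share of T-gated cells with a UMI was 8.33% (5.16 to 12.6) and 6.86% (4.44 to 10.03), so the share was lower in running, with overlapping intervals. All 224 and all 556 UMIs lay in T-gated cells that also had a UMI of the chemokine gene Ccl5, a marker of memory and effector T cells. Ccl5 was also seen in 87.9% and 97.1% of NK-gated cells. T-gated cells with at least 2 UMIs of the NK receptor genes numbered 61 and 111. They held 213 of the 224 and 260 of the 556 Gzma UMIs, with a log2 ratio of −0.83 (−1.09 to −0.56). The 12 and 8 T-gated cells in the NK cell-like cluster held 77 and 98. In neutrophil-like cells, which are not known to make granzyme A, 0.441% and 0.749% of cells had a UMI, at median depths of 5866 and 4581.5 UMIs.

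Gzmb encodes granzyme B, which cuts after aspartate and activates caspases. It lies on chromosome 14 at 56258836 to 56262334. T-gated cells held 30 UMIs in ground and 145 in running, a log2 ratio of 1.55 (0.98 to 2.17). The difference did not rest on a single cell: the largest counts were 6 UMIs in ground and 20 in running, and without these cells the log2 ratio was 1.67 (1.03 to 2.37). A UMI was seen in 19 of 240 ground cells (7.92%, 4.83 to 12.1) and 50 of 350 running cells (14.3%, 10.8 to 18.4). With each cell thinned to 1000 UMIs the shares were 2.74% and 4.64%. Neutrophil-like cells had a Gzmb UMI in 0.0929% and 0.0220% of cells.

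In NK-gated cells Gzmb had 40 and 65 UMIs, or 128 CPM (91.4 to 174) and 145 CPM (112 to 185), and the intervals overlapped. All 40 and all 65 lay within the NK cell-like cluster, where the levels were 185 and 152 CPM and the log2 ratio was −0.28 (−0.87 to 0.32). Every NK-gated cell with a Gzmb UMI also had a Gzma UMI, 17 of 17 in ground and 32 of 32 in running. In T-gated cells this was so for 8 of 19 and 12 of 50.

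Gzmk encodes granzyme K, a tryptase-like granzyme found in subsets of memory CD8 T cells. It was the member most tied to T cells, with 30 UMIs in 19 ground cells and 62 UMIs in 30 running cells of the T gate, and 1 and 3 UMIs in NK-gated cells. The T-gated level was 18.8 CPM (12.7 to 26.9) in ground and 23.6 CPM (18.1 to 30.3) in running, and the log2 ratio of 0.33 (−0.32 to 1.01) was within counting error. One running cell held 19 of the 62 UMIs, and without it and the ground cell with most UMIs the log2 ratio was 0.01. Among T-gated cells split by co-receptor, the CD8 cells, with a Cd8a or Cd8b1 UMI and none of Cd4, held 30 of 30 Gzmk UMIs in ground and 57 of 62 in running.

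**Figure D3:**
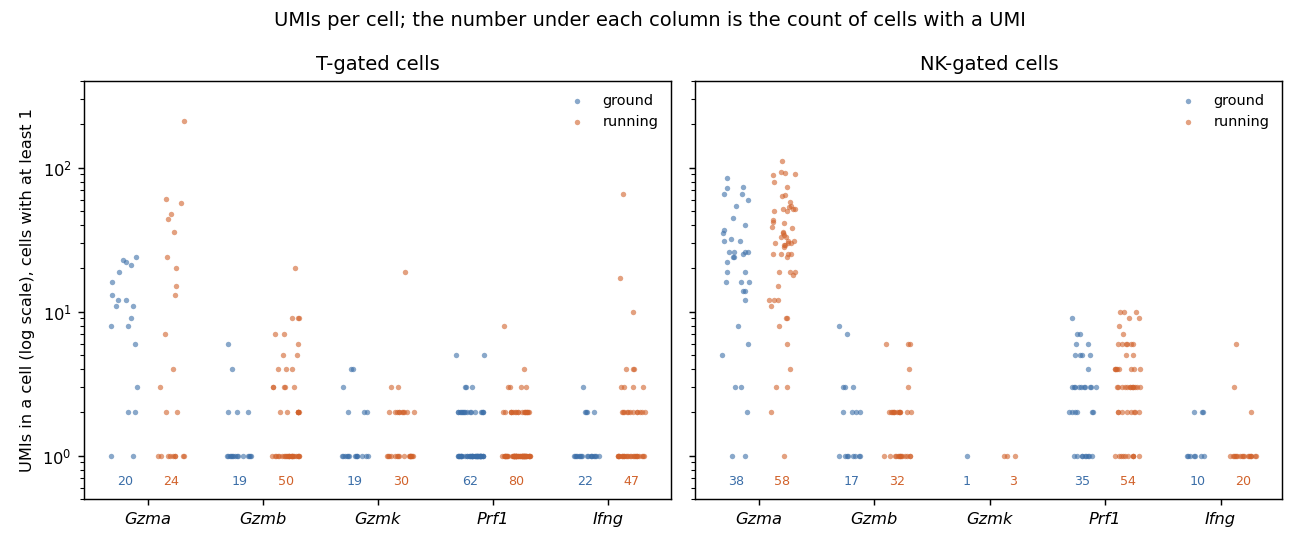
UMIs per cell of the 3 granzyme genes, Prf1 and Ifng in T-gated (left) and NK-gated (right) cells, on a log axis. Each point is a cell with at least 1 UMI, in ground (blue) or running (orange), and the printed number counts such cells. Gzma in T-gated cells comes from 20 and 24 cells with a single running cell at 211 UMIs, and Ifng has a single running cell at 66 UMIs.

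Prf1 encodes perforin, the pore-forming protein of the granules, and lies on chromosome 10 at 61297751 to 61304684. In T-gated cells it was the member with the lowest ratio, with 92 ground UMIs at 57.7 CPM and 117 running UMIs at 44.6 CPM, a log2 ratio of −0.37 (−0.78 to 0.04). A UMI was seen in 25.8% (20.4 to 31.9) and 22.9% (18.6 to 27.6) of cells, so the 2 libraries overlapped. In NK-gated cells Prf1 was at 352 CPM (289 to 424) and 459 CPM (398 to 526), and within the NK cell-like cluster at 494 and 475 CPM, a log2 ratio of −0.06 (−0.40 to 0.29). Cells in neither gate held 17 and 16 Prf1 UMIs in all.

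Nkg7 encodes a membrane protein of the granules that is needed for their efficient release, and lies on chromosome 7 at 43437138 to 43438246. T-gated cells had 642 CPM in ground (1022 UMIs) and 699 CPM in running (1833 UMIs), a log2 ratio of 0.12 (0.01 to 0.23). Within the T cell-like and NK cell-like clusters the levels were 814 and 987 CPM and the log2 ratio was 0.28 (0.16 to 0.39), with a UMI in 78.7% and 88.5% of cells. The 2 T-gated ground cells with most Nkg7, at 63 and 53 UMIs, lay in the progenitor-like cluster. In NK-gated cells Nkg7 was at 1596 and 1922 CPM, and within the NK cell-like cluster, where every cell had a UMI, at 2102 and 2002 CPM (log2 ratio −0.07, −0.24 to 0.10).

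Fasl encodes Fas ligand, and lies on chromosome 1 at 161780691 to 161788495. T-gated cells had 56 UMIs in ground and 86 in running, or 35.2 CPM (26.6 to 45.7) and 32.8 CPM (26.2 to 40.5), with no separation between the libraries. NK-gated cells had 24 and 55 UMIs, or 76.8 CPM (49.2 to 114) and 122 CPM (92.3 to 159). The log2 ratio of 0.67 (−0.04 to 1.43) became 0.19 (−0.53 to 0.95) within the NK cell-like cluster. Only 5 and 4 Fasl UMIs were found in all remaining cells.

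Ifng encodes interferon-γ, and lies on chromosome 10 at 118441046 to 118445894. T-gated cells held 28 UMIs in 22 ground cells and 166 UMIs in 47 running cells, a log2 ratio of 1.85 (1.26 to 2.48). A single running cell, with 39 CD3 UMIs, 8 Cd4 UMIs and none of Cd8a or Cd8b1, held 66 of the 166. Without the cell with most UMIs in each library the log2 ratio was 1.28 (0.64 to 1.98), so the difference was smaller but its interval still excluded 0. The share of cells with a UMI was 9.17% (5.83 to 13.6) and 13.4% (10.03 to 17.4), with overlapping intervals, and 2.41% and 3.92% after thinning to 1000 UMIs. NK-gated cells held 13 and 28 UMIs, too few for the 50-UMI mark, at 41.6 CPM (22.1 to 71.1) and 62.4 CPM (41.4 to 90.1).

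Klrd1 encodes CD94, the partner that pairs with NKG2A and NKG2C receptors, and Klrk1 encodes NKG2D, an activating receptor for stress ligands. They are neighbours on chromosome 6, at 129588092 to 129598775 and 129610323 to 129623903, with 11.55 kb between them. In T-gated cells Klrd1 was at 173 and 203 CPM, a log2 ratio of 0.23 (0.02 to 0.45). Klrk1 was at 198 and 253 CPM, a log2 ratio of 0.35 (0.16 to 0.55).

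The shares of T-gated cells with a UMI were further apart than these levels. For Klrd1 they were 39.6% (33.4 to 46.1) and 54.3% (48.9 to 59.6), and for Klrk1 30.4% (24.7 to 36.7) and 44.3% (39.0 to 49.7), with no overlap of the intervals for either gene. Running T-gated cells were also deeper, and at 1000 UMIs per cell the shares were 15.4% and 19.1% for Klrd1 and 16.4% and 20.5% for Klrk1. The part of depth in the unthinned shares was not tested further. Both genes were seen in 56 of 240 ground cells and 133 of 350 running cells.

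The share of T-gated cells with a Ccl5 UMI also differed, at 63.3% (152 cells) and 70.3% (246 cells), and within these cells fewer ratios stood apart from 0. Klrk1 was at 345.5 and 380 CPM there (log2 ratio 0.14, −0.06 to 0.34), Klrd1 at 293.5 and 303 CPM (0.04, −0.17 to 0.27) and Nkg7 at 1010.5 and 1028 CPM (0.02, −0.09 to 0.14). Prf1 was lower in running, at 93.7 and 63.0 CPM (−0.57, −1.0 to −0.14). Gzmb (28.2 and 83.2 CPM, 1.56, 0.94 to 2.24) and Ifng (30.5 and 93.9 CPM, 1.62, 1.03 to 2.27) were higher by more than 2-fold within these cells too. For Ifng, a single running cell, which also had 65 Ccl5 UMIs, held 66 of the 158 UMIs. An Ifng UMI was seen in 13.8% and 16.7% of these cells.

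In NK-gated cells Klrd1 was at 566 and 584 CPM and Klrk1 at 790 and 951 CPM. Within the NK cell-like cluster both were lower in running, Klrd1 at 767 and 610 CPM (log2 ratio −0.33, −0.62 to −0.04) and Klrk1 at 1095 and 987 CPM (−0.15, −0.38 to 0.09). The interval of Klrd1 included 0 once the cell with most UMIs in each library was left out (−0.25, −0.55 to 0.05).

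**Figure D4:**
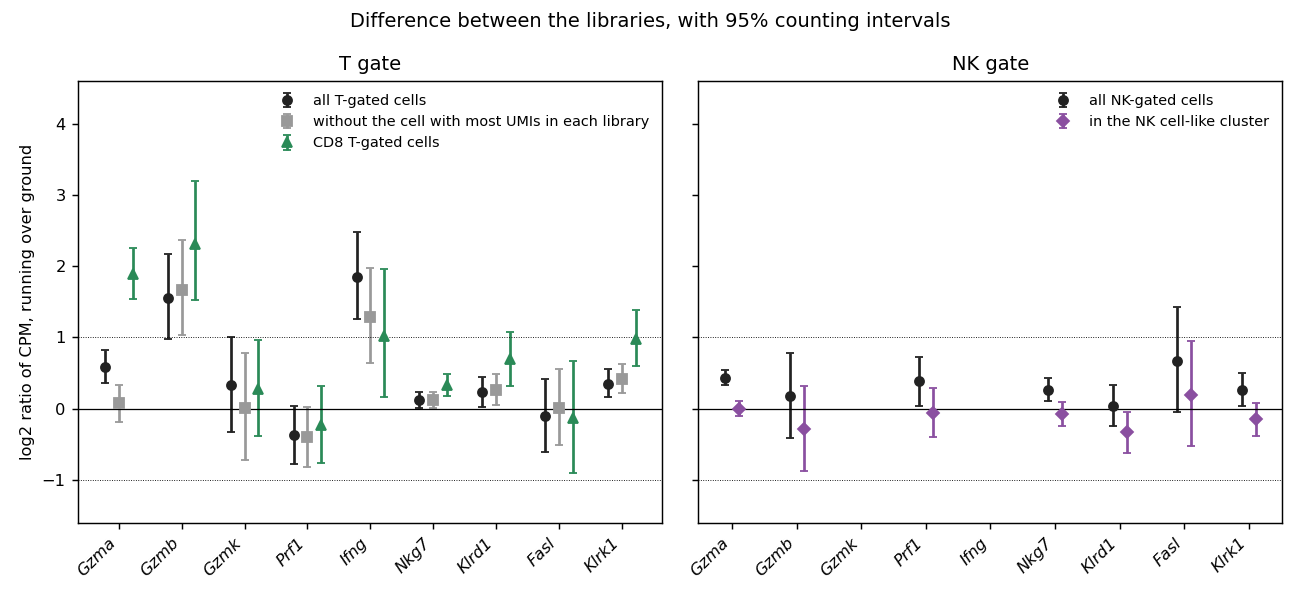
Log2 ratio of CPM, running over ground, for members with at least 50 UMIs in the T gate (left) and the NK gate (right), with 95% counting intervals and dotted lines at 2-fold. Gzma in T-gated cells moves from 0.59 to 0.07 when the cell with most UMIs in each library is left out (grey squares), while Gzmb stays above 1. In the NK cell-like cluster (purple) the ratios of Gzma, Prf1, Nkg7 and Klrk1 have intervals that include 0.

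Among CD8 cells, of which the T gate held 92 in ground and 122 in running, the libraries were further apart for both Gzmb and Gzma. Their median depth was 4809.5 and 6825 UMIs. Gzmb had 15 UMIs in the ground cells, at 26.9 CPM, and 117 in the running cells, at 133 CPM, a log2 ratio of 2.31 (1.53 to 3.19). A UMI was seen in 9 of 92 cells (9.78%, 4.57 to 17.8) and 33 of 122 cells (27.0%, 19.4 to 35.8), or 3.77% and 9.30% at 1000 UMIs per cell. Gzma was at 140 and 517 CPM, a log2 ratio of 1.89 (1.54 to 2.25), and 1.46 (1.04 to 1.90) without the cell with most UMIs in each library. It came from 8 and 16 cells. A single running CD8 cell with 21920 UMIs in all held the most UMIs of Gzmb (20), Gzmk (19) and Nkg7 (74) in the T gate. These 2 members and Ifng (26.9 and 54.6 CPM, log2 ratio 1.02, 0.16 to 1.97) were at least 2-fold higher, 3 of 9, where 2.12% of 3781 genes were. Without the cells with most UMIs the ratio of Ifng was 0.72 (−0.29 to 1.81).

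Receptor genes were also higher in running CD8 cells. Klrk1 was at 127 and 252 CPM, a log2 ratio of 0.98 (0.59 to 1.39), with a UMI in 21.7% (13.8 to 31.6) and 48.4% (39.2 to 57.6) of cells. Klrd1 was at 149 and 240 CPM (0.69, 0.32 to 1.08), with a UMI in 39.1% and 69.7% of cells, and 12.5% and 20.6% after thinning. Nkg7 was at 876 and 1101 CPM, a log2 ratio of 0.33 (0.17 to 0.49). Prf1 (−0.23, −0.76 to 0.32), Fasl (−0.13, −0.90 to 0.67) and Gzmk (0.27, −0.39 to 0.96) were within counting error.

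Of the CD8 cells, 68 of 92 in ground and 107 of 122 in running had a Ccl5 UMI. Within these, 2 of 9 members were at least 2-fold higher, Gzma (193 and 594 CPM, log2 ratio 1.62, 1.27 to 1.99) and Gzmb (37.0 and 152 CPM, 2.03, 1.25 to 2.92), where 1.96% of 3166 genes were. A single running cell held 211 of the 454 Gzma UMIs. A Gzma UMI was seen in 8 of 68 cells (11.8%) and 16 of 107 cells (14.95%). Ifng was at 0.73 (−0.13 to 1.68), Klrk1 at 0.76 (0.36 to 1.17), Klrd1 at 0.52 (0.13 to 0.92) and Prf1 at −0.52 (−1.09 to 0.06).

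Cells with neither co-receptor gene or with both numbered 127 and 192, and their Gzma level was 167 CPM for ground cells and 66.4 CPM for running cells, a log2 ratio of −1.33 (−1.71 to −0.96), from 12 and 8 cells. Their Gzmb was at 17.2 and 14.97 CPM (log2 ratio −0.20, −1.20 to 0.85). T-gated cells with a UMI of Trdc, the constant gene of the δ receptor chain, numbered 20 and 26, across all co-receptor classes. They held 97 of the 224 Gzma UMIs in ground and 20 of the 556 in running, in 7 and 5 cells. CD4 cells numbered only 21 and 36, had 0 Gzma UMIs in either library and 0 and 5 Gzmb UMIs, and held 1 and 74 Ifng UMIs, 66 of the 74 in the single cell described above. The difference between these subsets was not tested.

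Members were seen together more in NK-gated than in T-gated cells. The median number of the 9 genes with a UMI was 5 in ground and 6 in running NK-gated cells, and 2 and 3 in T-gated cells. None of the 9 was seen in 56 of 240 and 77 of 350 T-gated cells, and in 3 of 58 and 1 of 70 NK-gated cells. At least 5 were seen in 28 and 57 T-gated cells (11.7% and 16.3%). Gzmk and Ifng were seen together in 0 of 240 ground T-gated cells and 12 of 350 running ones. This pair had the lowest count of all pairs of members in ground T-gated cells. Gzmk was seen in only 19 and 30 T-gated cells and Ifng in 22 and 47, so few shared cells could occur. Running cells of both gates were deeper, and the part of depth in these counts was not tested.

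**Figure D5:**
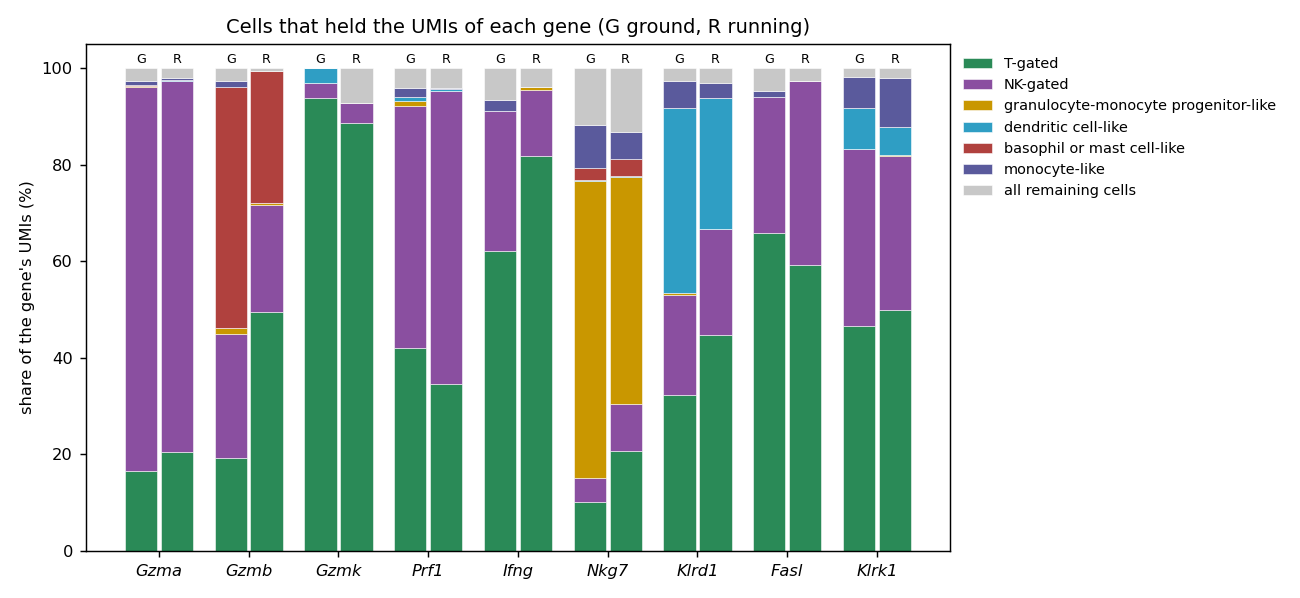
Share of each gene's UMIs found in each kind of cell, in percent, for ground (G) and running (R). T-gated and NK-gated cells held nearly all UMIs of Gzma, Gzmk, Prf1, Ifng and Fasl, while granulocyte-monocyte progenitor-like cells held the largest share of Nkg7, dendritic cell-like cells a large share of Klrd1, and basophil or mast cell-like cells 78 of the 156 ground UMIs of Gzmb.

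Taken over all kept cells, 4 of the 9 members were at least 2-fold higher in running, where 2.48% of 13738 genes were: Gzma (16.5 and 34.8 CPM, log2 ratio 1.07), Gzmk (0.390 and 0.893 CPM, 1.20), Ifng (0.548 and 2.59 CPM, 2.24) and Klrk1 (8.25 and 17.0 CPM, 1.05). Nkg7 alone was lower (123 and 113 CPM, −0.12). These values combine the number of T-gated and NK-gated cells, their depth, their levels and the UMIs of cells outside both gates. T-gated cells held 1593134 of 82105712 UMIs in ground and 2623921 of 78405673 in running. NK-gated cells held 312621 and 449000. The part of each was not tested.

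Outside the 2 gates, Nkg7 was the member with most UMIs, 8559 in ground and 6187 in running, which is 106.7 and 82.1 CPM with a log2 ratio of −0.38 (−0.43 to −0.33). In granulocyte-monocyte progenitor-like cells, named from Elane, Mpo, Prtn3, Ctsg and Ms4a3, it was seen in 253 of 274 ground cells (92.3%) and 171 of 179 running cells (95.5%). Its level there was 962 CPM (938 to 986) and 839 CPM (814 to 865), a log2 ratio of −0.20 (−0.25 to −0.14). The gene was also found at 360 and 322 CPM in basophil or mast cell-like cells, and at 156 and 172 CPM in stem and multipotent progenitor cell-like cells. The other granule genes were nearly missing from these progenitor-like cells, with 1 and 2 UMIs of Gzma, 2 and 0 of Prf1 and 0 of Gzmk.

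Nkg7 differed between myeloid clusters. Of the neutrophil-like clusters it was highest in the 2 led by Fcnb and Camp, genes of early neutrophil stages, where one such cluster had 68.0 and 58.4 CPM, for ground and running, and the other 69.9 and 79.8 CPM. In the cluster led by Mmp8, Thbs1 and Ltf it was at 3.91 and 4.26 CPM. In monocyte-like cells ground had 45.9 CPM and running 30.7 CPM, a log2 ratio of −0.58 (−0.74 to −0.42), and 14.3% and 11.1% of cells had a UMI. Of B cell-like cells, 1.95% and 0.754% had one.

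Klrd1 was present in dendritic cells at levels near those of T-gated cells. Plasmacytoid dendritic cell-like cells had 217 CPM in ground (191 to 246) and 182 CPM in running (161 to 204), with a UMI in 68.8% and 71.1% of cells, and the log2 ratio was −0.26 (−0.51 to −0.0046), and −0.24 (−0.49 to 0.02) without the cell with most UMIs in each library. In the order of levels, they did not separate from T-gated cells in either library. Conventional dendritic cell-like cells were at 100 and 77.3 CPM. Neutrophil-like cells had a Klrd1 UMI in 0.209% and 0.330% of cells. Klrk1 was low in plasmacytoid dendritic cell-like cells, at 9.80 and 15.6 CPM.

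Klrk1 was the 1 of 5 members with at least 50 UMIs outside both gates that was at least 2-fold higher there (1.42 and 3.23 CPM, log2 ratio 1.18, 0.86 to 1.52), where 2.38% of 13584 genes were. Monocyte-like cells held most of its UMIs there in running. Their 1423 ground cells held 44 UMIs and the 1271 running cells 136, at levels of 2.26 and 8.28 CPM and a log2 ratio of 1.88 (1.38 to 2.40), where 1.05% of 10872 genes were at least 2-fold higher in running. A UMI was seen in 2.81% (2.02 to 3.81) and 8.73% (7.24 to 10.4) of cells, at median depths of 10221 and 9358 UMIs, and in 0.240% and 0.824% after thinning to 1000 UMIs. Each of the 3 larger monocyte-like clusters had the same direction, with log2 ratios of 1.60 (0.90 to 2.33), 2.13 (0.66 to 3.91) and 3.12 (1.99 to 4.50). No cell held more than 5 UMIs. Neutrophil-like cells had a UMI in 0.186% and 0.0881% of cells, and B cell-like cells in 1 of 668 and 0 of 663. In conventional dendritic cell-like cells Klrk1 was at 56.8 and 95.3 CPM (log2 ratio 0.75, 0.15 to 1.35).

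Gzmb was found in basophil or mast cell-like cells, named from Prss34, Mcpt8 and Cpa3 among others, where ground had 111 CPM and running 82.3 CPM. The 78 and 80 UMIs were spread unequally: 6 of 106 ground cells had a UMI, of which 2 held 36 and 33, and 22 of 110 running cells did, with at most 17. The shares were 5.66% (2.10 to 11.9) and 20% (12.98 to 28.7), at median depths of 4321 and 5365.5 UMIs, and 3.61% and 6.39% after thinning. No UMI of Gzmk, Prf1, Ifng, Klrd1, Fasl or Klrk1 was found in these cells, which by the exact interval allows a UMI of each in up to 3.42% of ground and 3.30% of running cells and sets no limit on expression too low to be seen at this depth.

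Other genes of the same pathways were followed in 5 lists. Chemokines that activated cytotoxic cells secrete stood apart in both gates. In T-gated cells 2 of 4 were at least 2-fold higher in running, beside 2.75% of all genes, Ccl3 (17.6 and 80.4 CPM, log2 ratio 2.19, 1.62 to 2.82) and Ccl4 (38.3 and 121 CPM, 1.66, 1.26 to 2.08). Single running cells held 93 of 211 Ccl3 UMIs and 146 of 317 Ccl4 UMIs, and without the cells with most UMIs the ratios were 1.99 and 0.97. Within the T cell-like and NK cell-like clusters the ratios over all cells were 3.16 (2.20 to 4.32) and 1.76 (1.33 to 2.21). There a single running cell held 93 of 133 Ccl3 UMIs. Without the cells with most UMIs the cluster ratios were 1.60 (0.48 to 2.905) and 1.02 (0.53 to 1.53). In NK-gated cells 3 of 4 chemokines were at least 2-fold higher in running, beside 1.63% of all genes. Ccl4 was at 92.8 and 782 CPM (3.08, 2.53 to 3.67) and Ccl3 at 54.4 and 221 CPM (2.02). Xcl1, which attracts dendritic cells, was at 259 and 659 CPM (1.35, 0.99 to 1.72).

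These 3 genes were higher in running within the NK cell-like cluster too, where 1.76% of genes were at least 2-fold higher. The log2 ratios there were 2.71 (2.14 to 3.33) for Ccl4, 1.84 (1.03 to 2.76) for Ccl3 and 1.03 (0.66 to 1.42) for Xcl1. A single running cell held 208 of the 349 Ccl4 UMIs, and without the cells with most UMIs the ratios were 2.56, 1.35 and 0.89. Ccl5 was the fourth chemokine, at −0.18 (−0.25 to −0.10) in the cluster and 0.51 (0.47 to 0.56) in T-gated cells.

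In the other lists no gene with at least 50 UMIs in a gate was past 2-fold there, and genes with fewer were not counted. For granule loading and release, 12 of 18 genes had at least 50 UMIs in T-gated cells, 7 of them above 0, with a median log2 ratio of 0.07. Of all genes, 57.8% were above 0 in T-gated cells, 61.8% in NK-gated cells and 49.0% within the NK cell-like cluster. Each list's count is to be read beside these shares. Stx11, a syntaxin of granule fusion, was at 0.75 (0.17 to 1.36) with 34 and 94 UMIs, of which 12 and 30 lay within the T cell-like and NK cell-like clusters (0.60, −0.41 to 1.70), and Serpinb6b, a protease inhibitor, at 0.43 (−0.04 to 0.92). Srgn, which encodes the granule proteoglycan serglycin, was at −0.42 (−0.54 to −0.31), with 273 of 1111 ground UMIs in a single cell and −0.09 without it and the highest running cell. In NK-gated cells 4 of 7 were above 0, with a median of 0.23, Srgn at −0.94 (139 of 281 ground UMIs in a single cell, −0.18 without) and Serpinb6b at 0.84 (0.34 to 1.36), which was 0.42 (−0.09 to 0.95) within the NK cell-like cluster. In that cluster 2 of 7 were above 0, with a median of −0.13. Gzmd, Gzme, Gzmf, Gzmg and Gzmn had no UMI in either gate.

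For receptor partners and death ligands, 7 of the 8 genes with at least 50 UMIs were above 0 in T-gated cells, with a median of 0.41. Tnf, a death-inducing cytokine gene, was at 0.87 (0.11 to 1.67) and within the clusters past 2-fold (1.35, 0.33 to 2.51, 10 and 42 UMIs), Klrc1, which encodes NKG2A, at 0.58 (0.26 to 0.90), Hcst, which encodes the NKG2D adaptor DAP10, at 0.50 (0.38 to 0.62) and H2-T23, which encodes a ligand of CD94, at 0.49 (0.25 to 0.73). In NK-gated cells 4 of 5 were above 0 with a median of 0.14, led in size by Klrc2 (0.25, −0.14 to 0.64) and Hcst (0.20, −0.07 to 0.48). Within the NK cell-like cluster 1 of 5 was above 0.

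For transcription factors and cytokine receptors of cytotoxic cells, 9 of 11 genes were above 0 in T-gated cells, with a median of 0.20. The largest in size were Il12rb2, a subunit of the interleukin-12 receptor (0.87, −0.07 to 1.90), Eomes (−0.56, −0.90 to −0.22) and Id2, a transcriptional regulator of NK and effector cells (0.53, 0.37 to 0.68). In NK-gated cells 8 of 9 were above 0, with a median of 0.19 and Il18r1, a subunit of the interleukin-18 receptor, at 0.39 (−0.05 to 0.84), its partner Il18rap at 0.36 (−0.03 to 0.75) and Eomes at 0.36 (−0.03 to 0.75). Within the NK cell-like cluster 0 of 9 were above 0. For the interferon-γ receptor and response, 4 of 7 genes were above 0 in T-gated cells, with a median of 0.07, Socs1, a feedback inhibitor, at −0.42 (−0.85 to 0.01) and the receptor genes Ifngr2 at 0.23 (−0.46 to 0.94) and Ifngr1 at 0.20 (0.0023 to 0.40). In NK-gated cells 3 of 4 were, with a median of 0.34 and Ifngr1 at 0.46 (0.13 to 0.81). Within the NK cell-like cluster 2 of 4 were above 0, with a median of 0.06 and Ifngr1 at 0.23 (−0.13 to 0.60).

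The genes most like each member in pattern were sought among 11613 genes with at least 200 UMIs, by Pearson's r of log2(CPM + 10) over 28 points, 14 classes in each of 2 libraries. Points of a library share its depth and free RNA, and the NK gate itself was set by Klrb1c, Klre1 and Ncr1, so the r are descriptions. Gzma was most like Klrb1c (0.996), Klra9 (0.993) and Klre1 (0.993), and Prf1 like Klra9 (0.998), Klrb1c (0.994) and Eomes (0.994). Fasl was most like Klra7 (0.999), Eomes (0.998) and Xcl1 (0.998). Outside the gates Fasl was at no more than 0.123 CPM in these classes, far below the 10 CPM added. Its r therefore rest on the T-gated and NK-gated points. This holds largely for Gzma, Prf1, Gzmk and Ifng too, at no more than 2.85, 1.78, 0.891 and 1.49 CPM there.

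The remaining members had other neighbours. Gzmb was most like Itga2 (0.981), the integrin CD49b of NK cells and basophils, Il18r1 (0.958) and Sytl3 (0.947). Gzmk was most like Cxcr6 (0.990), Tnfsf8 (0.970) and Bcl11b (0.967), the last a T-cell transcription factor. Ifng was most like Sh2d1a (0.977), Trdc (0.977) and Samd3 (0.976). Among the genes most like Klrd1 were Adora2a (0.938) and Kbtbd11 (0.9296), and among those most like Klrk1 were Ccl5 (0.938) and Klre1 (0.911). Nkg7 had the lowest likeness, at 0.867 for Cst7, which encodes the protease inhibitor cystatin F, 0.801 for Spry2 and 0.796 for Arsb.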

How the data were processed

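Per the file headers, the authors' matrices hold raw counts of UMIs per gene and cell barcode, not normalized, written by Cell Ranger 5.0.0. The submitters' processing notes also list STAR, and mm10 as the build. Each library was taken as its group from its labels. Members were matched by symbol in the files, 9 of 9, and coordinates are those of RefSeq for GRCm38.p6, the assembly behind it.

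The filters required 500 UMIs, 250 genes and no more than 10% mitochondrial UMIs per barcode, which removed 253 and 293. Scrublet in scanpy 1.11.5 called and removed 243 (2.73%) and 100 (1.09%) doublets. Cells were clustered jointly without the members or the listed cytotoxic genes (2000 variable genes, 30 components, 15 neighbours, Leiden at resolution 1, igraph 0.11.9), and a cluster was called "like" a type from its markers. The names were rebuilt here.

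Levels are UMIs summed over cells per 1000000 UMIs of those cells. Sums carry exact Poisson intervals, shares exact Clopper-Pearson intervals and ratios exact conditional binomial intervals (Python 3.11.15, scipy 1.17.1, numpy 2.4.6, pandas 2.3.3), all at 95% and covering counting error only. The interval procedure was run on simulated data with independent Poisson counts per gene. These data have no clumping of UMIs within cells, so the run says nothing about error from that source. No test was possible with 1 library per group. The text names all 9 members, the 3 genes likest to each, and from each list the 2 to 4 genes with at least 50 UMIs in a gate and the largest log2 ratio. Where fewer or other genes are named, they were chosen after their values were seen. A few genes that this rule picks are not reported here. The members and lists were chosen with earlier results of these data known. The alternatives were the gates, filters, doublets, scaling, thinning to 1000 UMIs and leaving out the cell with most UMIs.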

Additional observations from a re-analysis of the deposited data

Results flagged for a closer look

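Nkg7 differed between running and ground in opposite directions in different cells. Its log2 ratio was 0.28 in T-gated cells of the T cell-like and NK cell-like clusters and 0.98 in erythroid cell-like cells, but −0.19 in neutrophil-like, −0.20 in granulocyte-monocyte progenitor-like and −0.58 in monocyte-like cells. The counting interval excluded 0 in each of the 5. The difference between these classes was not tested, since each library is a single sample. In erythroid cell-like cells a single running cell held 39 of the 78 Nkg7 UMIs, and without the cell with most UMIs in each library the log2 ratio was 0.11 (−0.60 to 0.82).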

How the results depend on the processing

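No paired analysis was possible because each group has 1 library, and no result can be shown to exceed the spread between animals. For the 9 genes summed in NK-gated cells, the log2 ratio of 0.35 was 0.11 with at least 3 NK-gene UMIs, 0.25 relative to the median of all genes (0.09) and −0.06 within the NK cell-like cluster, which also turned Gzma (−0.00083), Prf1 (−0.06), Nkg7 (−0.07), Klrk1 (−0.15), Gzmb (from 0.18 to −0.28) and Klrd1 (from 0.04 to −0.33). In T-gated cells, 0.29 became 0.71 with at least 1 CD3 UMI and 0.06 as a mean of CPM over cells, which turned Gzma (−0.51). In cells of neither gate Nkg7 held 92.7% of the UMIs of the 9 genes in ground and 88.2% in running. The summed ratio of −0.31 there became −0.20 with no CD3 UMI allowed in the NK gate and −0.52 as a mean over cells. It was −0.38 relative to the median and −0.36 without haemoglobin and granule genes in the totals. Gzma there turned to −0.15 with at least 3 NK-gene UMIs and −0.48 as a mean over cells. The causes were not tested. With T subsets in ground proportions the T-gated ratio was 0.30. The restriction to clusters, this weighting and leaving out shared barcodes were chosen after seeing the data.

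T-gated shares were 6.23% and 8.24% with at least 1 CD3 UMI, 2.31% and 3.22% with at least 3, and 2.39% and 3.15% within the clusters. NK-gated shares were 1.11% and 1.15% with at least 1 NK-gene UMI, and 0.496% in ground within the cluster. Genes at least 2-fold higher numbered, with minima of 50, 20 and 200 UMIs, 203, 455 and 39 in T-gated, 38, 238 and 3 in NK-gated, 323, 560 and 129 in the remaining and 341, 590 and 140 in all cells. Those at least 2-fold lower numbered 51, 151 and 13, then 45, 184 and 16, then 79, 155 and 40, then 74, 149 and 37. With 28 to 166 UMIs for Gzmb, Gzmk and Ifng in T-gated cells, ratios of these genes are known only within wide intervals.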
